A study of Mus musculus with 6 samples.

Results

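A set of 8 genes of calcium-dependent membrane binding and the effector cell cytoskeleton was followed in induced regulatory T cells (Treg) of mice. They are the S100 genes S100a6, S100a10 and S100a11, the annexin genes Anxa1, Anxa2 and Anxa6, and Capg and Vim. The genes were taken by name from a list of 9 S100, annexin and cytoskeleton genes that mark effector and memory T cells. Of the 9, 8 were found among the 14777 genes of the deposited count table, and S100a4 was not analysed here. All 8 passed the filter on low counts. Anxa1 passed it mainly through the FL libraries.

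The study compared 3 libraries of cells with FOXP3 lacking exon 2 (dE2) with 3 libraries of cells with full-length FOXP3 (FL). FOXP3 is the transcription factor that defines Treg. Foxp3 itself had 436, 403 and 335 CPM (counts scaled to library size, with TMM factors) in dE2, against 447, 397 and 337 CPM in FL (adjusted p = 0.985, edgeR), and a count over the whole gene does not check the loss of exon 2. Naive CD4 T cells, from mice of strain C57BL/6, were the source of all 6 libraries and were activated through CD3 and CD28 (antibodies at 1 µg/ml, the anti-CD3 coated) in the presence of human TGF-beta (5 ng/ml) and human IL-2 (20 ng/ml). After 3 days more than 90% of the cells were FOXP3 positive, per the labels. Total counts were 13307155 to 16140432 per library. No label ties the replicates to different mice or cultures, and the p-values therefore describe library-to-library spread that could be technical.

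S100 proteins are small calcium sensors of the EF-hand type that act by binding other proteins. Annexins bind acidic phospholipids in a calcium-dependent way and organise the inner face of membranes. The families meet in complexes: S100A10 binds annexin A2, and S100A11 binds annexin A1. Capg caps the barbed ends of actin filaments, and Vim encodes vimentin, the main intermediate filament protein of lymphocytes. Several of these genes are commonly higher in effector and memory T cells than in naive ones.

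S100a10 and S100a11 are neighbours on mouse chromosome 3, 28792 bases apart, both on the plus strand. S100a11 spans 93520488 to 93526287 and S100a10 93555080 to 93564643 (mm10), and S100a6 lies on the same chromosome at 90612882 to 90624181. The other members are spread over the genome, Anxa1 on chromosome 19 at 20373428 to 20390944 and Anxa6 on chromosome 11 at 54979108 to 55033445, both on the minus strand. Anxa2 lies on chromosome 9 at 69453620 to 69491795, Capg on chromosome 6 at 72544391 to 72562983 and Vim on chromosome 2 at 13573927 to 13582826, all on the plus strand. Of the 8 genes, 6 (all but S100a10 and Anxa6) were matched to a RefSeq promoter of build GRCm38.p6, from 250 bases before to 50 bases after the start. Each was searched on both strands for the AP-1 letters TGANTCA, which read the same on either strand, and for the forkhead letters TGTTTAC, which on the other strand read as GTAAACA. The AP-1 letters stood in S100a11, which had 2 matches, and in Anxa2, which had 1, and the forkhead letters stood in 0 of the 6 promoters. Of 32851 promoters, 7.81% held the AP-1 and 3.65% the forkhead letters. The promoters of S100a11 and Anxa2 were chosen for their matches and are shown with these in capitals. They lie at chr3:93520246-93520545 and chr9:69453433-69453732, both on the plus strand.
S100a11: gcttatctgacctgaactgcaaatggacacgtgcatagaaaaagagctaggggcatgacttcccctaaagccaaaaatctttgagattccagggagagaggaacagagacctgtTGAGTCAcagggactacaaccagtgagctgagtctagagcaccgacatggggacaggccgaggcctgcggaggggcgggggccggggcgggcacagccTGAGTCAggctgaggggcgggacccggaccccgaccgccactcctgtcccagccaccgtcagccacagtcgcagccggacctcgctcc
Anxa2: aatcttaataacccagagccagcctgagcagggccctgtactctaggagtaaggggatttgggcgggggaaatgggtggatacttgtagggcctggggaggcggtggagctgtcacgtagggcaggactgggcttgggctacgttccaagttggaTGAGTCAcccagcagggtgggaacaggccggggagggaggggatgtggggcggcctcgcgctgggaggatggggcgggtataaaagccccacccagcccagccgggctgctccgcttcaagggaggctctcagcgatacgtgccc
A match is a run of letters and not a shown binding site.

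No member passed the main test between dE2 and FL, in which the replicate number was left out. The member closest to the threshold was S100a10. Of 8 members tested, 0 were higher and 0 lower (edgeR quasi-likelihood test, adjusted p under 0.05 over all 14632 tested genes), where 6.17% of all tested genes passed, 3.75% higher and 2.43% lower. At an unadjusted p under 0.05 there were 3 members (S100a10, S100a11 and Anxa1), against 22.5% of all tested genes. Of these, Anxa1 had few counts and was kept by the filter mainly through FL, so it adds no separate support. The count of members called depended on the method. It was 1 with DESeq2, with the edgeR likelihood ratio test, with upper quartile scaling, with a minimum of 5 CPM or without dE2 replicate 1, in each case S100a10. It was 2 without a composition factor and 2 with the replicate number as a block, in both cases S100a10 and S100a11. It was 0 with limma-voom. The libraries were taken to be paired by number, from the data and not from the labels. No label says what a shared number stands for, so the main test left it out and ignores this pairing. With the block S100a10 and S100a11 were lower (adjusted p = 1.2e-04 and 0.0091, edgeR), and 21.5% of all tested genes passed.

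S100a10, the S100 protein that holds annexin A2 at the membrane in a heterotetramer, stood at 204, 197 and 155 CPM in dE2 replicates 1 to 3, against 266, 272 and 217 CPM in FL replicates 1 to 3. Every dE2 library lay below every FL library, as it also did for Anxa1, so 2 of 8 members had groups that did not overlap. Anxa1 passed the low-count filter mainly through FL, the group where it is higher, so its gap is no separate support for a difference. Of all tested genes 27.1% had groups that did not overlap, and 13.5% had them with dE2 lower. The log2 fold change, dE2 minus FL, was -0.44 ± 0.13 (SE), a ratio of 0.737, with a 95% interval of -0.72 to -0.16 on the log2 scale. It missed the threshold in the edgeR quasi-likelihood test (adjusted p = 0.052). It passed with the replicate block (adjusted p = 1.2e-04, edgeR), DESeq2 (0.028), the edgeR likelihood ratio test (0.032), upper quartile scaling (0.031), no composition factor (0.011) and the minimum of 5 CPM (0.038). Without dE2 replicate 1 the log2 fold change was -0.52 (adjusted p = 0.029), and without any other single library adjusted p lay between 0.051 and 0.18. The authors' deposited table gives a log2 fold change of -0.44 and a false discovery rate of 0.034, in a table where 8.17% of genes are under 0.05.

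S100a11, a binding partner of annexin A1, had 27.3, 25.0 and 20.4 CPM in dE2, against 39.5, 31.3 and 24.6 CPM in FL. The groups overlapped only through FL replicate 3, which lay below dE2 replicates 1 and 2. The log2 fold change was -0.39 ± 0.16 (SE), with an interval of -0.73 to -0.05, and did not pass (edgeR quasi-likelihood test, adjusted p = 0.153). With the replicate block it passed (adjusted p = 0.0091), as it did without a composition factor (0.049). Without FL replicate 1 the log2 fold change was -0.21 (adjusted p = 0.581), and without FL replicate 3 it was -0.55 (adjusted p = 0.063). A processed pseudogene, Gm12854, matches the S100a11 transcript at 99.0% over 297 bases and is counted separately, with 8 to 23 counts per library, so the split of S100a11 reads is uncertain. A similar copy, Gm7665, matches at 98.7% over 297 bases.

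S100a6, an S100 protein of proliferating cells that binds annexins and the ubiquitin ligase adaptor encoded by Cacybp, had 54.7, 38.3 and 29.0 CPM in dE2, against 44.0, 30.2 and 30.9 CPM in FL. The highest library was dE2 replicate 1 and the lowest dE2 replicate 3, so the dE2 libraries enclosed all FL ones. The log2 fold change was 0.22 ± 0.25 (SE; interval -0.38 to 0.82; edgeR quasi-likelihood test, adjusted p = 0.680). Without dE2 replicate 1 it was -0.06.

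**Figure D1:**
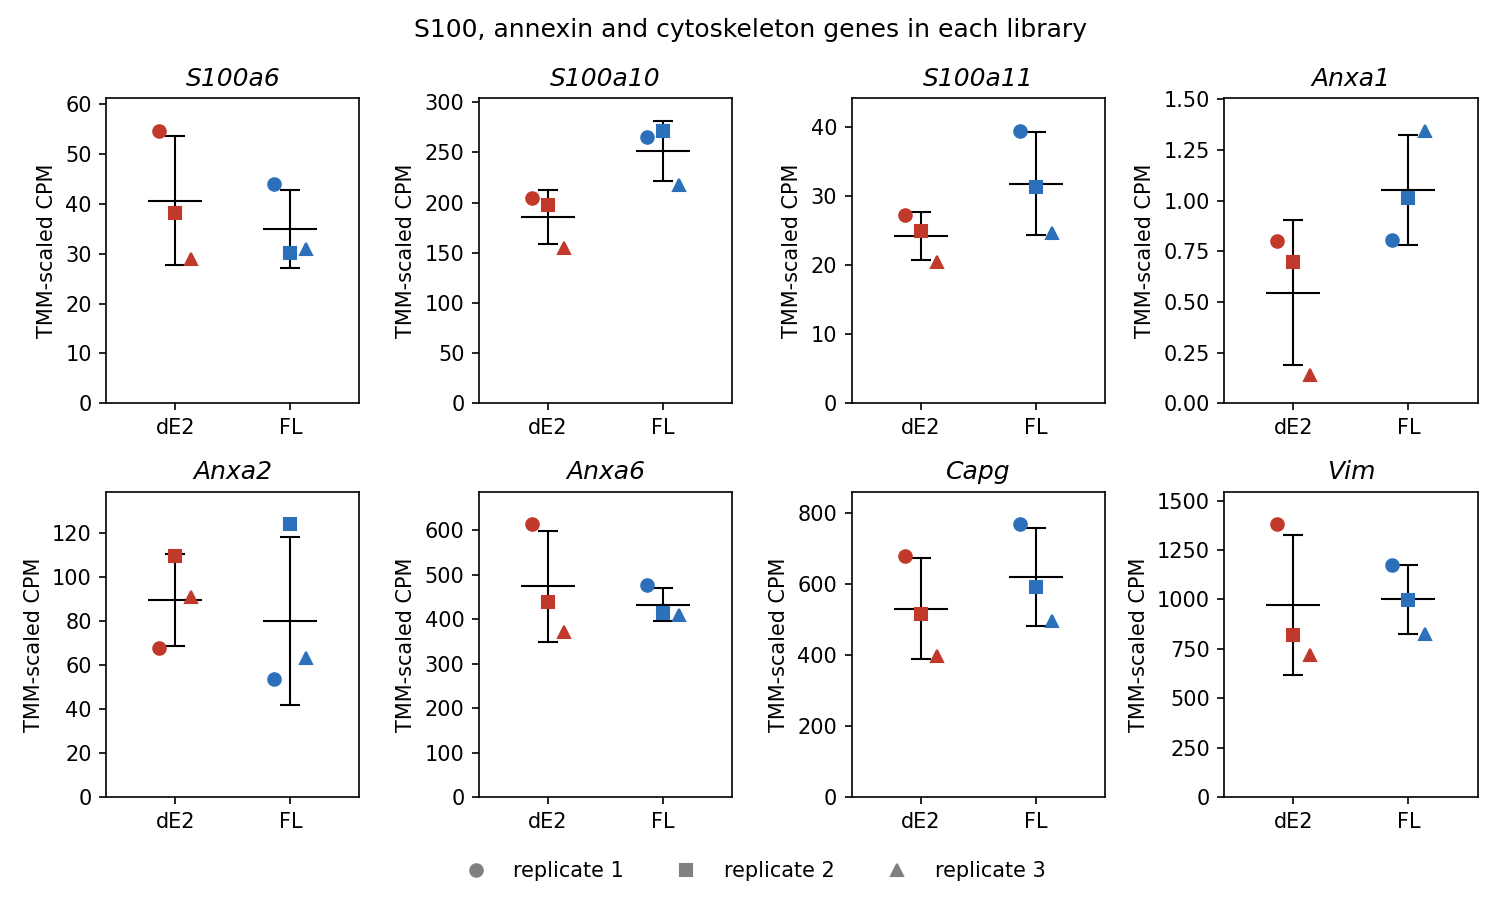
TMM-scaled CPM (linear axes from 0) of the 8 genes, with one point per library, shaped by replicate number, and the mean ± SD of 3 libraries in black, for dE2 and FL. S100a10 and Anxa1 are the 2 genes whose dE2 points all lie below the FL points, and dE2 replicate 1 is the highest dE2 library for each gene but Anxa2.

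Anxa1, an annexin known for its anti-inflammatory action through formyl peptide receptors, was close to the limit of detection. It had 12, 9 and 2 counts in dE2, against 12, 17 and 19 counts in FL, which is 0.803, 0.697 and 0.138 CPM in dE2, against 0.807, 1.01 and 1.34 CPM in FL. The groups did not overlap, but dE2 replicate 1 and FL replicate 1 held the same number of counts. The log2 fold change of -0.94 ± 0.45 (SE; interval -1.87 to -0.01) did not pass (edgeR quasi-likelihood test, adjusted p = 0.219), and without dE2 replicate 3 it was -0.48.

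Anxa2, the annexin that pairs with S100A10 and links membranes to cortical actin, varied more between libraries of one group than between the groups. It had 67.9, 109.6 and 91.1 CPM in dE2, against 53.5, 124.0 and 63.1 CPM in FL. FL replicate 2 was the highest library and FL replicate 1 the lowest, so the FL libraries enclosed all dE2 ones. The log2 fold change was 0.16 ± 0.41 (SE; interval -0.93 to 1.24; edgeR quasi-likelihood test, adjusted p = 0.874), the widest interval among the 7 members above 20 CPM. Without FL replicate 2 it was 0.62 (adjusted p = 0.052). An antisense gene, Gm16144, overlaps an exon of Anxa2, and the reads carried no strand information, so the genes cannot be told apart there. Gm16144 had 2 to 24 counts per library.

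Anxa6, a large annexin of the plasma membrane and endosomes, had 613, 439 and 371 CPM in dE2, against 476, 413 and 409.8 CPM in FL. The dE2 libraries enclosed the FL ones, with dE2 replicate 1 highest and dE2 replicate 3 lowest. Its log2 fold change was 0.13 ± 0.16 (SE; interval -0.20 to 0.47; edgeR quasi-likelihood test, adjusted p = 0.677). Without dE2 replicate 1 the log2 fold change was -0.10, and without a composition factor it was -0.01.

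Capg, the actin filament capping protein, had 678, 515 and 395 CPM in dE2, against 767, 591 and 496 CPM in FL. In each group replicate 1 was highest and replicate 3 lowest, and the group ranges overlapped. The log2 fold change was -0.22 ± 0.20 (SE; interval -0.67 to 0.23; edgeR quasi-likelihood test, adjusted p = 0.573), and with single libraries left out it lay between -0.44 (without dE2 replicate 1, adjusted p = 0.127) and -0.04 (without FL replicate 1, adjusted p = 0.956). Vim had 1379.8, 818 and 721 CPM in dE2, against 1177, 999.7 and 824 CPM in FL. Its dE2 libraries enclosed the FL ones on both sides, and the log2 fold change was -0.04 ± 0.25 (SE; interval -0.60 to 0.52; edgeR quasi-likelihood test, adjusted p = 0.948). Without dE2 replicate 1 it was -0.38 (adjusted p = 0.137).

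**Figure D2:**
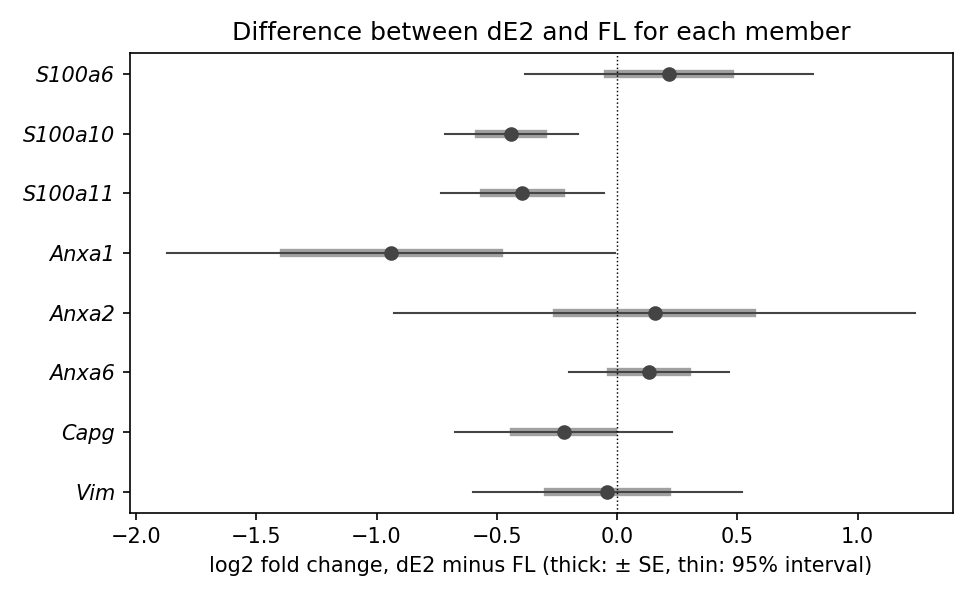
Log2 fold change (dE2 minus FL) of each gene from the edgeR fit, with its SE as a thick bar and its 95% interval as a thin line. The intervals of S100a10, S100a11 and Anxa1 lie below 0, and the other 5 include 0.

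The intervals limit what the comparison can say. For S100a10 a difference of up to -0.72 on the log2 scale lies within the interval, and for Vim differences from -0.60 to 0.52 do. The values therefore do not show that the genes without a call had equal RNA levels in dE2 and FL cells.

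Per length, Capg, Vim, S100a10 and Anxa6 were the most abundant members in both groups. On the scale of counts per kilobase and library size (RPKM), the level of Capg was 209 ± 56.0 in dE2 and 244 ± 54.3 in FL (SD, n = 3 each). Vim had a level of 205 ± 75.0 RPKM in dE2 and 211 ± 37.2 RPKM in FL, and S100a10 had 153 ± 22.0 RPKM in dE2 and 208 ± 24.5 RPKM in FL. Anxa6 had a level of 162 ± 42.7 RPKM in dE2 and 148 ± 12.8 RPKM in FL. The ranges over all libraries of these 4 genes overlapped, so their order is resolved only in part. Within every library Capg was above S100a10 and Anxa6, and Vim was above Anxa6. Capg against Vim, Vim against S100a10, and S100a10 against Anxa6 changed order between libraries. All 4 lay between the 96.8 and the 98.8 percentile of tested genes in every library.

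S100a11 followed at 47.4 ± 6.85 RPKM in dE2 and 62.3 ± 14.6 RPKM in FL, and none of its libraries reached the lowest Anxa6 library, at 127 RPKM. S100a6 had 29.8 ± 9.52 RPKM in dE2 and 25.6 ± 5.70 RPKM in FL, and Anxa2 had 24.0 ± 5.60 RPKM in dE2 and 21.5 ± 10.2 RPKM in FL. These neighbours overlapped over libraries, S100a6 with S100a11 by a narrow margin, though within every library S100a11 was above S100a6. Anxa1 stood far below the others, at 0.209 ± 0.137 RPKM in dE2 and 0.404 ± 0.104 RPKM in FL.

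Because S100 proteins and annexins act in complexes, the ratio of partner RNAs was formed within each library, per length, which does not depend on library scaling. S100a10 over Anxa2 was 9.26, 5.54 and 5.23 in dE2, against 15.3, 6.75 and 10.6 in FL. The highest dE2 ratio lay between the 2 lower FL ratios, and the mean log2 ratio differed by -0.68, dE2 minus FL (exact permutation test, two-sided, p = 0.2). This test takes no account of the replicate numbers, and within each of the 3 numbers the dE2 ratio was below the FL ratio. S100a11 over Anxa1 was 174, 183 and 755 in dE2, against 250.1, 158 and 93.5 in FL (log2 difference 0.90; exact permutation test, p = 0.4), where the high ratio of dE2 replicate 3 rests on 2 Anxa1 counts. S100a6 over Anxa2 was 2.20, 0.953 and 0.870 in dE2, against 2.25, 0.664 and 1.34 in FL (log2 difference -0.04; exact permutation test, p = 0.9). With 3 against 3 libraries this test cannot go below 0.1, so none of the 3 ratios could have passed. With single libraries left out, the log2 difference ranged from -0.98 (without FL replicate 2) to -0.39 (without FL replicate 1) for S100a10 over Anxa2. It ranged from 0.21 (without dE2 replicate 3) to 1.27 (without dE2 replicate 1) for S100a11 over Anxa1.

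Libraries of one group differed from each other in a similar way for 5 of the 8 members. In deviations from the group mean of log2 CPM, replicate 1 was the highest library of its group for S100a6, S100a11, Anxa6, Capg and Vim, in dE2 and in FL alike. S100a10 and Anxa1 were highest in dE2 replicate 1 but not in FL replicate 1. Vim deviated by 0.56 in dE2 replicate 1 and by 0.25 in FL replicate 1, and Capg by 0.39 in dE2 replicate 1 and 0.33 in FL replicate 1. Anxa2 went the other way, at -0.37 in dE2 replicate 1 and -0.48 in FL replicate 1. Across the 6 libraries, S100a6, Anxa6, Capg and Vim had correlations of these deviations of 0.91 to 0.96 in their 6 pairs, and with Anxa2 of -0.60 to -0.39. These 4 genes were singled out after their values were seen. S100a11 had a correlation of 0.93 with Capg, 0.81 with S100a6, 0.79 with Vim and 0.70 with Anxa6. These are descriptions over 6 libraries that share depth, scaling and replicate number.

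**Figure D3:**
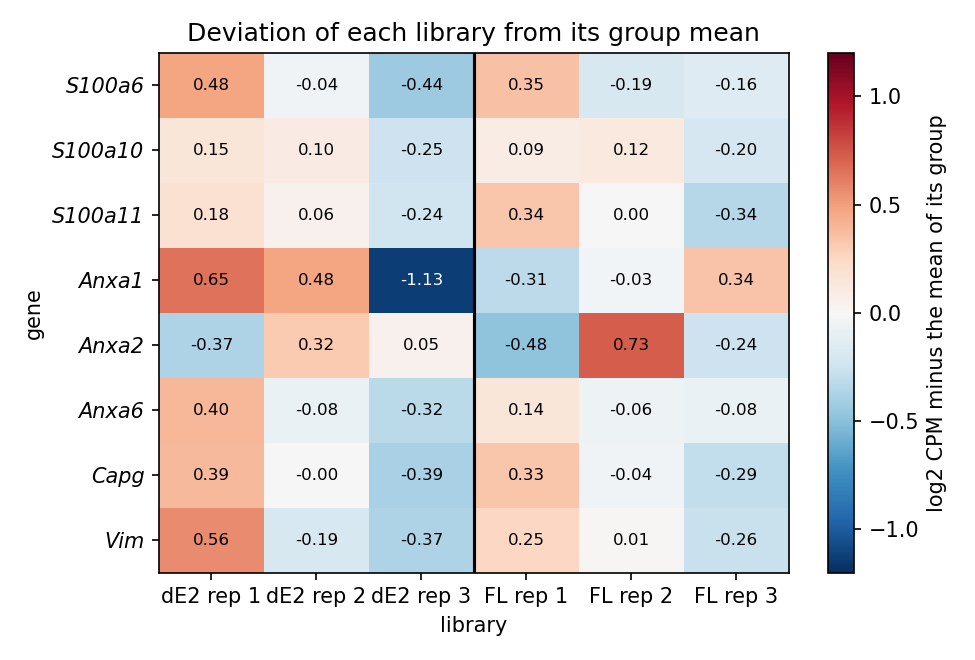
Log2 CPM of each gene in each library minus the mean of its group, in log2 units, for dE2 (left of the line) and FL. S100a6, Anxa6, Capg and Vim are above their group mean in both replicate 1 libraries, where Anxa2 is below it at -0.37 and -0.48.

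Some markers of other cells were also highest in dE2 replicate 1, and some differed between the groups. The summed CPM of Cd8a and Cd8b1, which mark CD8 T cells, was 138 in dE2 replicate 1 and 50.8 to 58.4 in the other dE2 libraries, against 29.0 to 53.0 in FL. Of 9 myeloid markers, Lyz2 and Cd68 were in the table, with summed levels of 8.97 to 22.6 CPM in dE2 and 4.52 to 7.86 CPM in FL. Lyz2 had 14.7 CPM in dE2 replicate 1, where Cd68 did not stand apart, at 7.96, 7.51 and 8.21 CPM in dE2, against 5.71, 4.34 and 6.09 CPM in FL. The sum of 3 of 4 NK markers, Klrd1, Eomes and Klrb1c, did not overlap, at 77.7 to 111 CPM in dE2 and 59.1 to 66.6 CPM in FL. The gap came from Klrd1 alone. Eomes overlapped, at 20.1 to 27.0 CPM in dE2 and 12.6 to 25.2 CPM in FL, as did Klrb1c, at 0.46 to 3.61 CPM in dE2 and 0.42 to 2.05 CPM in FL. Of all tested genes 27.1% had groups that did not overlap. Klrd1 did not pass without the replicate block (adjusted p = 0.132, edgeR) and passed with it (adjusted p = 1.9e-06, edgeR). The sum of 4 of 5 B cell markers was as high in dE2 replicate 1 (33.7 CPM) as in FL replicate 1 (33.5 CPM). Of 5 T cell and Treg genes taken as a check, Cd4 rose, at 1026 to 1387 CPM in dE2 and 832 to 976 CPM in FL (log2 fold change 0.49, adjusted p = 0.044, edgeR). This call was near the threshold. It held with the replicate block (adjusted p = 1.0e-04, edgeR), and no other alternative was run for it. Il2ra overlapped, at 4538 to 6088 CPM in dE2 and 4827 to 5373 CPM in FL, as did Foxp3. Neither passed (adjusted p = 0.895 for Il2ra and 0.985 for Foxp3, edgeR). Cd3e and Trac were higher in each dE2 library than in each FL library. Without the replicate block they did not pass (adjusted p = 0.105 for Cd3e and 0.170 for Trac, edgeR). With it both passed (adjusted p = 0.0040 for Cd3e and 0.020 for Trac, edgeR). The part of these cells in the member values was not tested, and in bulk RNA a change in the share of a cell type and a change in RNA per cell cannot be told apart. Without dE2 replicate 1, each member but Anxa2 had a lower log2 fold change than with it (S100a11 -0.49). This follows from dE2 replicate 1 being the highest dE2 library for each of these members, and it says nothing about other cells.

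The genes whose level was most like that of S100a10 over the 6 libraries were Erbin, Natd1, Gsto1, Rbm15b and Pak2, with Pearson r of log2 CPM between 0.985 and 0.989 among 9391 genes above 5 CPM. Such high r is easily found in a search of many genes over 6 libraries. The 5 were picked for following S100a10, so lower levels in dE2 follow from the choice and are no separate evidence. Gsto1, a glutathione transferase, was the 1 of the 5 that passed the test, at 9.50, 8.36 and 6.21 CPM in dE2, against 14.3, 13.1 and 10.7 CPM in FL (log2 fold change -0.66; edgeR quasi-likelihood test, adjusted p = 0.038).

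Among relatives of the S100 and annexin members and of Capg, 0 genes passed. Of the other S100 genes 2 were tested, S100a1 and S100a13, and 0 passed. S100a1 had 10.2, 9.53 and 7.24 CPM in dE2, against 12.2, 9.99 and 9.91 CPM in FL (adjusted p = 0.437, edgeR). S100a13 had 89.9 ± 17.6 CPM in dE2 and 105 ± 12.9 CPM in FL (SD, n = 3 each; adjusted p = 0.345, edgeR). Of 6 other annexins 0 passed, and Anxa5, which binds exposed phosphatidylserine, had 85.1 ± 9.49 CPM in dE2 and 87.9 ± 9.53 CPM in FL (adjusted p = 0.866, edgeR). Anxa7 had 32.1 ± 0.662 CPM in dE2 and 33.3 ± 3.57 CPM in FL (adjusted p = 0.842, edgeR). Of 9 genes of the gelsolin and capping family, the relatives of Capg, 0 passed, against 2 higher and 1 lower with the replicate block. Of all tested genes 6.17% passed without the block and 21.5% with it, so these counts in short lists say little about the families. Per length, the capping protein genes Capza1 and Capzb had the highest levels of this list. Capza1 had 251 ± 54.4 CPM in dE2 and 196 ± 28.9 CPM in FL (adjusted p = 0.167, edgeR). Capzb had 280.4, 253 and 196 CPM in dE2, against 223, 236 and 210.2 CPM in FL (adjusted p = 0.627, edgeR). The median log2 fold change was -0.13 for the 8 members, -0.10 for the other annexins, 0.13 for the gelsolin and capping family and -0.0043 for all tested genes.

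Of 3 tested structural relatives of Vim, 2 were called lower, the B-type nuclear lamin genes Lmnb1 and Lmnb2, both near the threshold. Of all tested genes 2.43% were lower, and so short a list says little about the family. Lmnb1 had 32.6, 36.2 and 41.3 CPM in dE2, against 50.8, 52.6 and 45.6 CPM in FL (log2 fold change -0.44 ± 0.12 SE; edgeR quasi-likelihood test, adjusted p = 0.039). Lmnb2 had 19.6, 14.6 and 19.0 CPM in dE2, against 24.3, 24.2 and 25.7 CPM in FL (log2 fold change -0.48 ± 0.14 SE; edgeR, adjusted p = 0.0445). Both lay in each dE2 library below each FL library, as did 13.5% of all tested genes. Plec, which links filaments to other structures, had 288 ± 8.62 CPM in dE2 and 300.2 ± 13.7 CPM in FL (SD, n = 3 each; adjusted p = 0.820, edgeR). Leaving out dE2 replicate 2 or any FL library ended both lamin calls, as did limma-voom, and leaving out dE2 replicate 1 ended that of Lmnb1 (adjusted p = 0.097, edgeR).

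Of 22 regulators of cortical actin, 1 rose and 0 fell, a share near that of all tested genes (3.75% higher and 2.43% lower). Msn, which encodes moesin, the main linker of lymphocyte membrane proteins to actin, had 1368, 2063 and 1407 CPM in dE2, against 1257, 1082 and 955 CPM in FL (log2 fold change 0.55 ± 0.16 SE, adjusted p = 0.049 by edgeR). The Msn call was lost with limma-voom (adjusted p = 0.074), upper quartile scaling (0.059), no composition factor (0.092), no filter (0.0505), the minimum of 5 CPM (0.054) and removal of a length trend (0.051), and without FL replicate 2 (0.12) or 3 (0.18) or dE2 replicate 2 (0.34) or 3 (0.056). Actb had 11680.3 ± 2163 CPM in dE2 and 11356 ± 1224 CPM in FL (SD, n = 3 each; adjusted p = 0.920, edgeR). Tmsb4x, the actin monomer binder thymosin beta 4, had 2026 ± 339.8 CPM in dE2 and 2079 ± 232 CPM in FL (adjusted p = 0.919, edgeR). With the replicate block 5 rose and 4 fell, where 21.5% of all tested genes passed.

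Of 7 ligands and receptors of S100 proteins and annexins, 1 rose, where 3.75% of all tested genes were higher, and a single call in so short a list says little about the list. Ahnak, the giant scaffold protein that binds the S100A10 and annexin A2 complex, had 83.4, 83.2 and 94.9 CPM in dE2, against 63.9, 69.7 and 65.1 CPM in FL. Every dE2 library lay above every FL library, and the log2 fold change was 0.40 ± 0.11 (SE, with an adjusted p of 0.042 by edgeR). The Ahnak call was lost with limma-voom (adjusted p = 0.055), upper quartile scaling (0.057), no composition factor (0.15), and without any 1 library but dE2 replicate 1 (0.0808 to 0.175). Cacybp, which encodes an S100A6 binding protein, had 142 ± 18.9 CPM in dE2 and 125 ± 8.29 CPM in FL (SD, n = 3 each; adjusted p = 0.397, edgeR). Plaur, the urokinase receptor gene, had 5.75, 23.6 and 31.7 CPM in dE2, against 3.70, 19.1 and 15.3 CPM in FL. Replicate 1 was the lowest library of each group, and the difference did not pass without the block (adjusted p = 0.731, edgeR) and passed with it (adjusted p = 1.0e-04, edgeR).

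Of 15 other genes that mark effector and memory T cells 6 rose, where 3.75% of all tested genes were higher, and the list median was 0.40. The list was drawn up with earlier results of these data known, so its count is not independent evidence of a direction. They were Ly6c2 (log2 fold change 2.54 ± 0.16 SE), Ly6c1 (1.28 ± 0.17), the chemokine receptor gene Cxcr3 (0.92 ± 0.12), the hyaluronan receptor gene Cd44 (0.57 ± 0.15), the integrin gene Itgal (0.52 ± 0.13) and Ahnak. Adjusted p was between 1.7e-08 and 0.042 for these genes (edgeR quasi-likelihood test). The count was 3 without dE2 replicate 2, FL replicate 1 or FL replicate 2, and without a composition factor, and in each of these Ly6c2, Ly6c1 and Cxcr3 passed. Reads of Ly6c1 and Ly6c2 can be shared between these near-identical copies. Lgals1, the galectin that is often grouped with S100 genes and Vim, had 568 ± 59.6 CPM in dE2 and 588 ± 20.0 CPM in FL (SD, n = 3 each; adjusted p = 0.865, edgeR). Emp3 had 790.4 ± 49.5 CPM in dE2 and 667 ± 52.6 CPM in FL (adjusted p = 0.268, edgeR). No test compared this list with the 8 members.

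**Figure D4:**
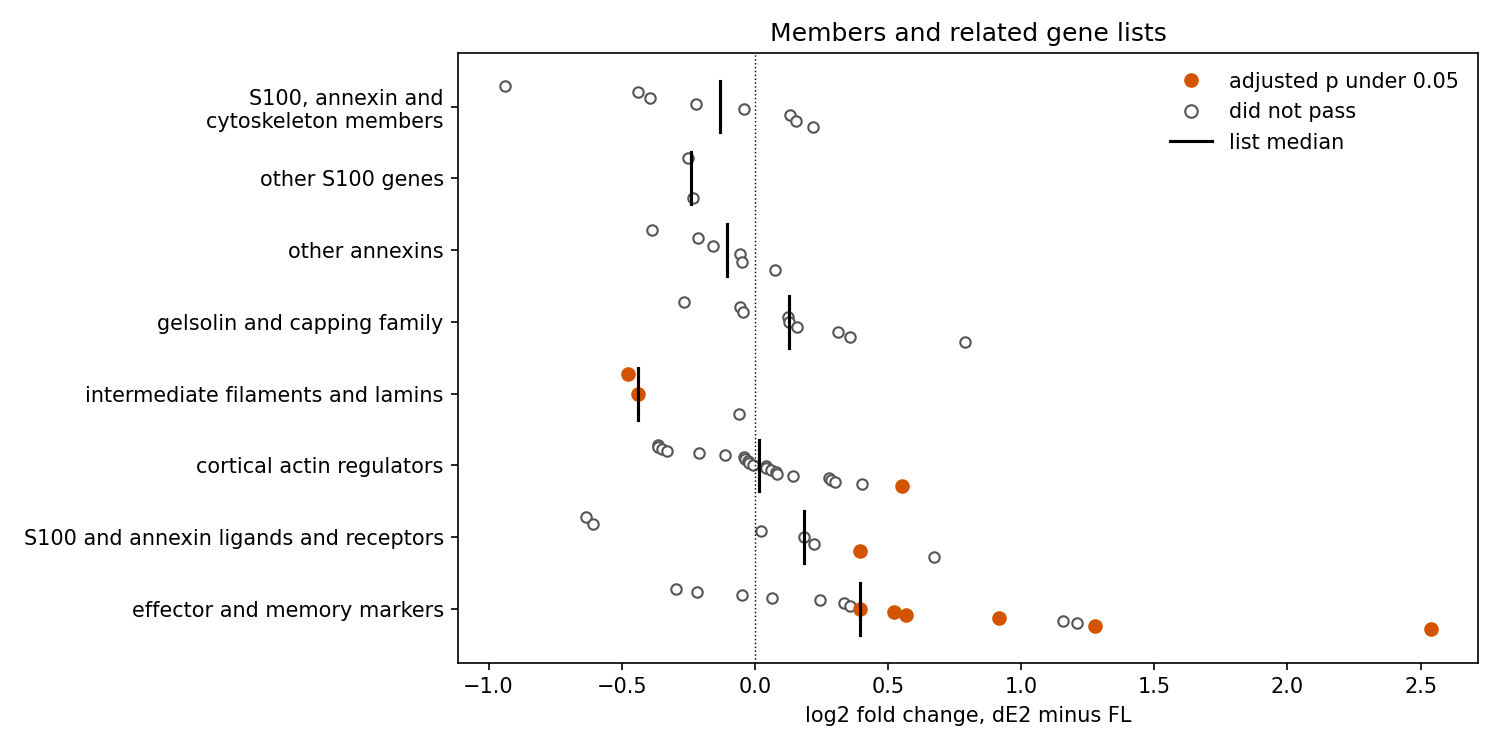
Log2 fold change (dE2 minus FL) of the 8 members and of each tested gene of the related lists, with genes that passed the edgeR test at adjusted p under 0.05 in orange and the list median as a black bar. The members have 0 orange points and a median of -0.13, and the effector and memory markers have 6 and a median of 0.40.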

How the data were processed

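Polyadenylated RNA of 6 libraries was sequenced. Per the submitters' processing notes, reads were handled with STAR 2.5 and bcl2fastq on mm10, and the notes also list Subread 1.5.1 with featureCounts, and edgeR 3.20.8. No settings are given. Per the file headers, the authors' table holds raw counts for every gene in each library, their log2 CPM, and the log2 fold change and p-value of their own comparison. Their deposited enrichment sheets hold a fold enrichment (a ratio) with its p-value for each term. Of these terms, 0 of 1377 for genes higher and 0 of 339 for genes lower in dE2 listed a member.

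Tests started from the deposited counts. Genes were kept with filterByExpr (14632 of 14777), normalised by TMM, then fitted in edgeR 4.0.16 under R 4.3.3 (quasi-likelihood test, robust, group as the only term, two-sided) with Benjamini-Hochberg adjustment. The SE is the size of the log2 fold change over the square root of F. Alternatives used DESeq2 1.42.0 and limma 3.58.1. Copies were found with blastn 2.17.0+ in GENCODE transcripts (at least 95% identity over 200 bases). Sense reads were 48.5% to 50.1% of exonic reads in the authors' mapping table, so strand is unresolved.

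Members and lists were chosen with earlier results of these data known. Named genes are the members, list genes that passed, the 2 highest of each list per length, and the 5 genes most correlated with the member of smallest p above 50 CPM. Same-numbered libraries had correlated deviations from their group means over genes (0.39, 0.21 and 0.19, other numbers -0.29 to 0.10), which pairs them by a rule of each pair over 0.1.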

Additional observations from a re-analysis of the deposited data

How the results depend on the processing

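Of the 8 members, 2 were called with the replicate block and 2 without a composition factor. The median log2 fold change of all tested genes was -0.14 without this factor and -0.0043 in the main fit. The count of members called was 1 with upper quartile scaling, DESeq2, the likelihood ratio test or a minimum of 5 CPM. The minimum left 7 members tested, without Anxa1, and DESeq2 gave Anxa1 no adjusted p. The count was 0 with DESeq2 size factors in edgeR, limma-voom, no filter, the length trend removed or adjusted p under 0.01. It was 0 to 1 when single libraries were left out. Over all genes 903 were called, against 3149 with the replicate block, 241 at adjusted p under 0.01, and 176 (without dE2 replicate 2) to 1367 (without dE2 replicate 1) with one library left out. The alternatives for the related lists were chosen after seeing the data. With the block, 3 gelsolin and capping, 9 cortical actin, 2 ligand and receptor and 10 effector and memory genes were called. Without a composition factor these counts were 1, 2, 0 and 3. The cortical actin count was 0 with upper quartile scaling, limma-voom, no filter, a minimum of 5 CPM, the length trend removed or adjusted p under 0.01. The ligand and receptor count was 0 with upper quartile scaling, limma-voom or adjusted p under 0.01. The lamin list had 0 with limma-voom or adjusted p under 0.01, and the effector list 3 at adjusted p under 0.01. With one library left out, counts were 0 to 1 for gelsolin and capping, 0 to 2 for lamins, 0 to 1 for cortical actin, 0 to 1 for ligands and receptors and 3 to 6 for effector and memory genes. Log2 fold changes reversed for Anxa6 without a composition factor (-0.0051). With one library left out they ranged from -0.060 to 0.41 for S100a6, -0.067 to 0.62 for Anxa2, -0.10 to 0.27 for Anxa6, -0.38 to 0.13 for Vim, -0.55 to -0.21 for S100a11, -0.44 to -0.04 for Capg and -1.36 to -0.48 for Anxa1. The log2 difference of S100a6 over Anxa2 ranged from -0.50 to 0.37. The cause of these changes was not tested. Anxa1, at 2 to 19 counts per library, is limited by depth.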
